A study of Saccharomyces cerevisiae with 2 samples.

Results

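The genes described here encode the cytosolic Hsp70 chaperones of budding yeast, their Hsp110 relatives and one further exchange factor. They are SSA1, SSA2, SSA3, SSA4, SSB1, SSB2, SSZ1, SSE1, SSE2 and FES1, chosen by name as 10 of 6002 protein-coding genes, and all 10 were found in the annotation. Accessible chromatin was measured by DNase-seq, in which open DNA is cut by DNase I in nuclei and stretches rich in cuts are called hotspots. The comparison concerns chromatin that depends on Hsp90, a chaperone that receives many of its clients from Hsp70. One group was a wild-type (WT) strain and the other a strain with the temperature-sensitive Hsp90 allele G170D, both in the laboratory background W303. Both cultures grew in YPD at 30 °C to an optical density of 0.65 and then spent 15 min in medium at 37 °C, so WT cells had also been through the temperature shift. Each strain gave 1 library and 1 hotspot list (7050 hotspots over 3.83 Mb in WT, 5988 over 3.33 Mb in G170D). No difference between strains therefore has a replicate check, and no test was possible. Read depth is unknown, and the shorter G170D list is the background to every value below. No library from before the shift was analysed here, so differences already present at 30 °C cannot be told apart from later ones.

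Hsp70 binds exposed hydrophobic stretches of proteins in a cycle driven by ATP. J-domain proteins start ATP hydrolysis, which closes Hsp70 on its substrate, and nucleotide exchange factors such as Hsp110 and Fes1 let it open again. The Ssa proteins serve the cytosol at large, whereas Ssb works on nascent chains at the ribosome together with Ssz1. In yeast, Hsp70 also binds and restrains Hsf1, the activator of heat shock genes. The genes differ in when they are used. SSA3, SSA4 and SSE2 are known as heat-inducible (3 genes), and SSA2, SSB1, SSB2 and SSZ1 as constitutive (4 genes). SSA1, SSE1 and FES1 are expressed in growing cells and raised further by heat (3 genes). These classes are background knowledge, since the files hold no expression values.

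Most of the promoters were accessible in both strains, and those that differed most belonged to SSE2, SSA4 and FES1. The promoter window ran from the coding start to 500 bp before it. A hotspot touched it in WT for 9 of 10 genes (82.0% of all coding genes) and in G170D for 8 of 10 (76.0%). It did so in both strains for 8 (72.4%), in WT alone for SSE2 (9.58%), in G170D alone for 0 genes (3.65%) and in neither for SSA3 (14.4%). Covered length had a median of 493 bp in WT against 325 bp in G170D, beside 317 and 286 bp over all coding genes. A covered length at least 100 bp lower in G170D was found for 3 of the 10, and 19.6% of all coding genes met this limit. Among genes with 100 bp or more to lose in WT, the counts were 3 of 9 here and 25.7% of 4575 coding genes. A covered length at least 100 bp higher in G170D was found for 0 of the 10, beside 9.61% of all coding genes. With 10 genes, these counts were near the shares over all coding genes. The median change was 0 bp both here and over all coding genes.

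**Figure D1:**
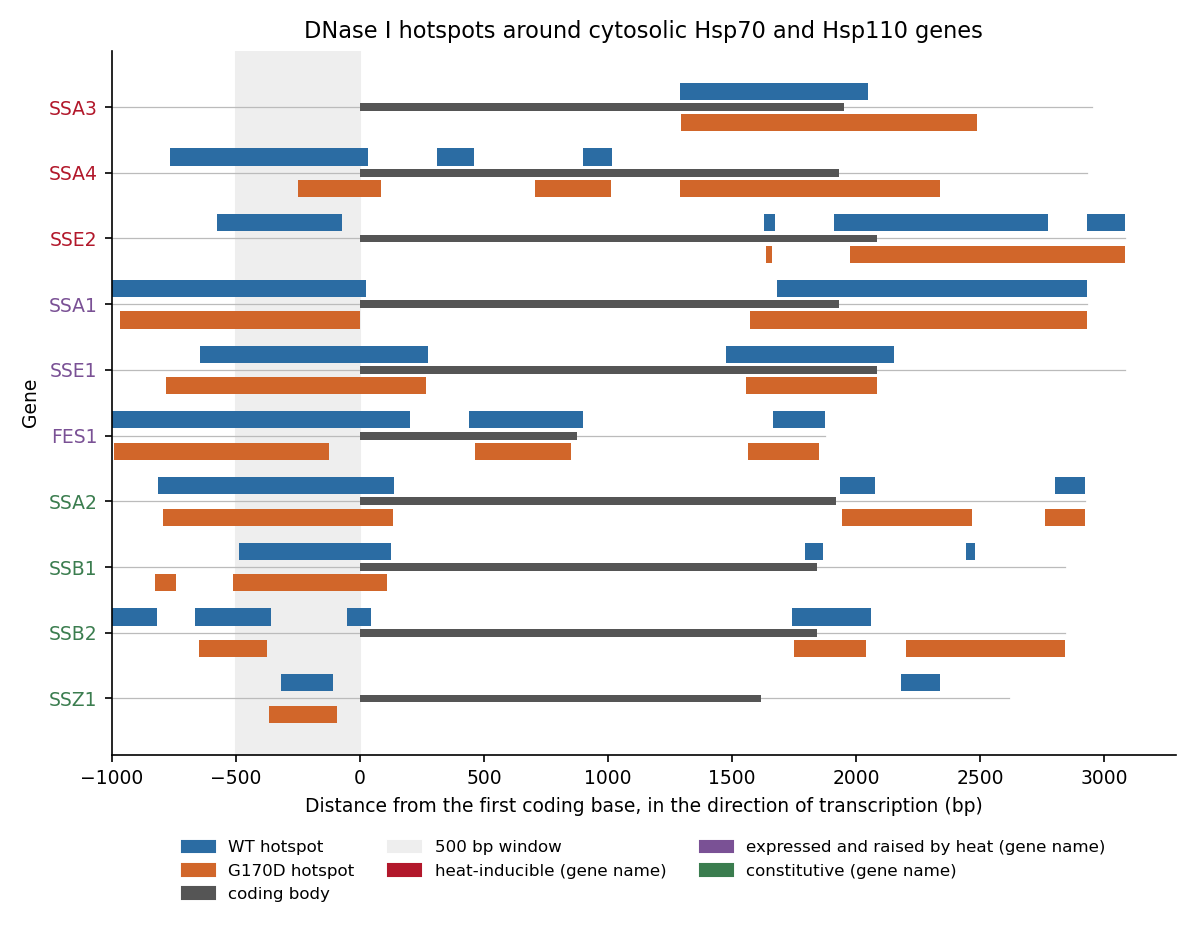
Hotspots around each gene, drawn by distance in bp from the first coding base in the direction of transcription, with WT hotspots above and G170D hotspots below each coding body and hotspots clipped 1000 bp outside it. The upstream hotspot of SSE2 is present in WT only, that of SSA4 is 800 bp wide in WT and 335 bp in G170D, and SSA4 has a 1048 bp hotspot over its 3′ end in G170D only.

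Among the heat-inducible genes, SSA3 had no accessible promoter in either library. SSA3 (chromosome II, 84499 to 86448, sacCer3, minus strand) encodes a stress-induced Ssa protein, and 0 bp of its promoter window was covered in WT and 0 bp in G170D. The nearest coding gene upstream, AAR2, lies 273 bp away on the same strand, so 227 bp of the window belong to its coding body. The hotspot at SSA3 lay instead at its 3′ end. It spanned 84400 to 85160 (761 bp) in WT and 83964 to 85153 (1190 bp) in G170D. The edges inside the gene were 7 bp apart, at 1288 and 1295 bp from the first coding base, and the covered share of the coding body was 33.9% in WT and 33.6% in G170D. The outer edges differed. ILS1, the isoleucyl-tRNA synthetase gene, starts 237 bp beyond the end of SSA3. The WT hotspot ended between these genes, whereas the G170D hotspot crossed that whole stretch and ran on into the ILS1 coding body. Of the 500 bp past the end of SSA3, 99 bp were covered in WT and 500 bp in G170D.

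SSA4, an Ssa gene strongly induced by heat, was accessible in both strains but over different stretches. Its promoter window (SSA4: chromosome V, 364589 to 366517, plus strand) was covered over 500 bp in WT against 249 bp in G170D, a change of -251 bp. A change this low or lower was found for 5.60% of coding genes. The hotspot ran from 363823 to 364622 in WT (800 bp) and from 364340 to 364674 in G170D (335 bp). The part next to the coding start was thus open in both libraries, and the missing part was the far one: the hotspot began 766 bp upstream in WT and 249 bp upstream in G170D. With a window of 250 bp the change was only -0.4 percentage points of the window, against -50.2 points with 500 bp, so the call rests on the distal stretch.

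The coding body of SSA4 went the other way. Its covered share was 15.5% in WT and 53.6% in G170D, a difference of 38.1 percentage points that 5.40% of coding genes reached or passed. WT had 2 small hotspots inside the gene, of 149 and 116 bp, while G170D had one of 309 bp near its middle and one of 1048 bp (365880 to 366927) over its 3′ end. That wide hotspot, at percentile 88.8 of the authors' scores in its list, reached past the coding start of the next gene, RTT105, which lies 284 bp downstream on the same strand. SSA4 was the only one of the 10 genes with at least 100 bp less promoter and at least 20 points more coding body in G170D, a combination found in 54 coding genes (0.9%).

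SSE2 encodes the stress-induced Hsp110, which releases ADP from Hsp70. Its promoter window (SSE2: chromosome II, 573915 to 575996, minus strand) was covered over 427 bp in WT against 0 bp in G170D. A change of -427 bp or lower was found for 61 coding genes (1.02%). The WT hotspot (576070 to 576572, 503 bp) ended 74 bp before the coding start. It lay partly in NPL4, a gene on the same strand whose coding body ends 347 bp before SSE2. The score of this hotspot stood at percentile 40.5 of the WT list, below the middle. With the higher-scoring 50% of each list SSE2 had no promoter hotspot in WT either and a change of 0 points. The remaining hotspots of SSE2 sat at the 3′ end in both libraries, where hotspots of 859 and 1740 bp in WT met a single one of 1443 bp in G170D, and its coding body was covered over 10.2% in WT and 6.24% in G170D. The 5 coding genes with symbols whose 4 values (promoter and body covered share in each strain) lay nearest to those of SSE2 were IMH1, PAN2, CDA1, RIM20 and MYO2, with summed differences of 2.30 to 6.95 percentage points among 5256 candidates.

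**Figure D2:**
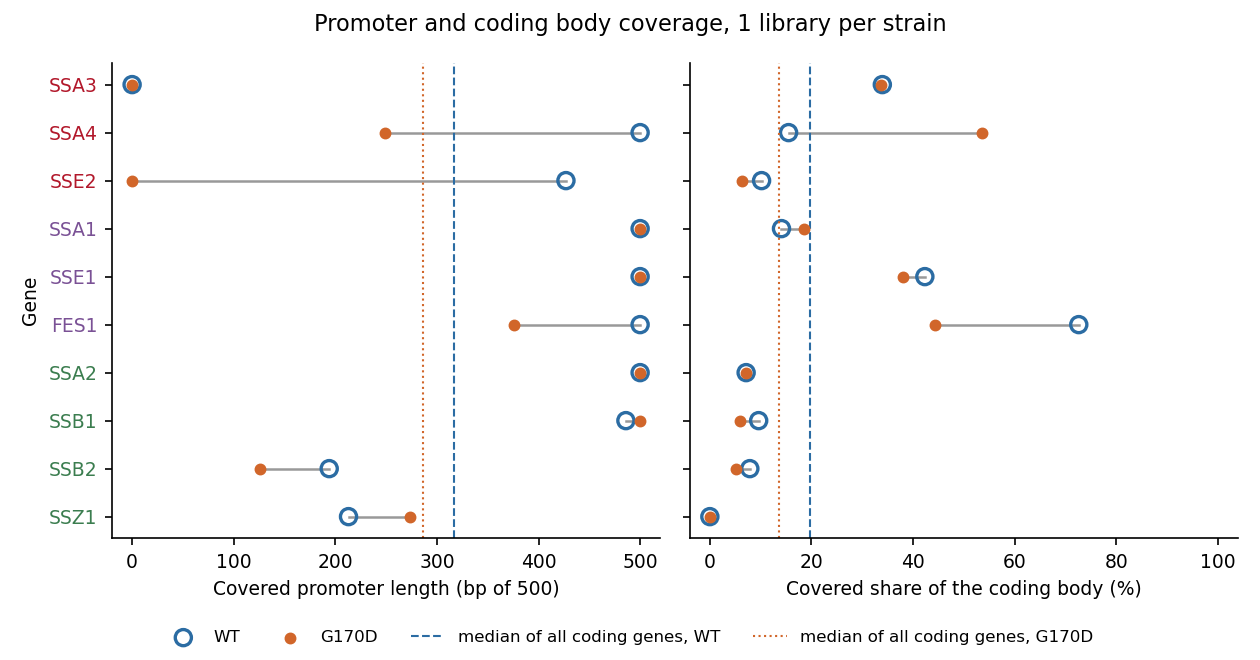
Covered promoter length (bp of 500, left) and covered share of the coding body (%, right) of each gene, with open circles for WT, filled points for G170D and vertical lines for the median of all 6002 coding genes. SSE2 goes from 427 to 0 bp and SSA4 from 500 to 249 bp of promoter, while the body of SSA4 goes from 15.5% to 53.6% and that of FES1 from 72.6% to 44.3%.

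Of the genes that are expressed in growing cells and raised by heat, SSA1 and SSE1 had the whole promoter window open in both strains. SSA1 (chromosome I, 139503 to 141431, minus strand), a general cytosolic Hsp70, was covered over 500 bp in WT against 500 bp in G170D by hotspots of 1033 and 966 bp. The WT hotspot entered 25 bp of the coding body and the G170D hotspot 1 bp. SSA1 was the only one of the 10 genes with a divergent neighbour, the elongation factor gene EFB1, and both hotspots crossed the whole 742 bp between the 2 coding starts. A tRNA gene, TRN1, and the small nucleolar RNA gene SNR18 also lie within 1000 bp of SSA1. SSE1 (chromosome XVI, 350194 to 352275, minus strand), the main Hsp110 of growing cells, was likewise covered over 500 bp in each strain. Its hotspots measured 920 bp in WT against 1049 bp in G170D and extended 275 and 267 bp into the coding body. Whole windows were covered for 5 of the 10 genes in WT and 4 in G170D, beside 30.0% and 27.0% of all coding genes.

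FES1, the exchange factor outside the Hsp110 family, was less covered in G170D both upstream and within the gene. Its promoter window (FES1: chromosome II, 443821 to 444693, minus strand) was covered over 500 bp in WT against 376 bp in G170D. Unlike SSA4, it lacked the stretch next to the coding start: the WT hotspot (444492 to 445719, 1228 bp) ran 202 bp into the coding body, whereas the G170D hotspot (444818 to 445683, 866 bp) stopped 125 bp before it. With a window of 250 bp the change was -49.6 points, against -24.8 points with 500 bp. The covered share of the coding body was 72.6% in WT and 44.3% in G170D. A body share at least 20 points lower in G170D was found for FES1 alone among the 10 (15.3% of all coding genes), and one at least 20 points higher for SSA4 alone (9.43%). The second FES1 hotspot, over the 3′ part of the gene, was kept, with 456 bp in WT against 387 bp in G170D.

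Within the 500 bp window and with all hotspots, the constitutive genes differed between strains by less than the 100 bp limit. SSB2 and SSZ1 passed it with the higher-scoring 50% of each list (-28.6 and -42.6 points of the window). With a 1000 bp window and all hotspots, SSB1 and SSB2 passed it (10.9 and -26.3 points of that window). SSA2 (chromosome XII, 95566 to 97485, minus strand), the partner of SSA1, was covered over 500 bp upstream in WT and 500 bp in G170D. Its hotspots, 950 and 930 bp wide, had edges within 18 bp of each other on the outer side and 2 bp on the inner side. SSB1 (chromosome IV, 44065 to 45906, plus strand), a ribosome-bound Hsp70 gene, was covered over 486 bp in WT against 500 bp in G170D. Its hotspots were nearly equal in width, at 613 and 622 bp. SSB2 (chromosome XIV, 252059 to 253900, plus strand), which encodes the other Ssb protein, was covered over 194 bp in WT against 126 bp in G170D. Most of the SSB2 signal lay far upstream, in the coding body of MER1, a meiotic splicing gene that ends 315 bp before SSB2. At the SSB2 start itself WT had a 96 bp hotspot, at percentile 9.32 of the scores of its list, and G170D had none. SSZ1 (chromosome VIII, 225525 to 227141, minus strand), the ribosome-associated partner of the J-domain protein Zuo1, was covered over 213 bp in WT against 274 bp in G170D. Its promoter hotspots stood at percentile 50.7 in WT and 49.8 in G170D, just on either side of that score limit. SSZ1 was the one gene with no hotspot anywhere in its coding body in either strain, as for 15.2% of coding genes.

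Hotspot edges were compared at the promoter hotspot nearest to each coding start, where those of both strains overlapped. This held for 7 of the 10 genes and for 4250 coding genes in all. The edge towards the gene differed by 2 bp at SSA2, 8 bp at SSE1, 14 bp at SSZ1, 16 bp at SSB1 and 24 bp at SSA1. It lay 52 bp further into the gene in G170D at SSA4, and 326 bp further from the gene at FES1. The median of this difference was 16 bp over the 7 genes and 58 bp over all 4250, whose quartiles were 20 and 238.5 bp. The far edge differed by 18 to 47 bp at 5 genes, by 137 bp at SSE1 (outward in G170D) and by 517 bp at SSA4 (inward), with a median of 43 bp beside 64 bp over all. SSB2 is not among the 7, because the WT hotspot at its start had no counterpart in G170D. This measure was added after the hotspot positions had been seen.

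Set side by side, the classes differed in their medians, with few genes in each. The median promoter change was -251 bp over the 3 heat-inducible genes, which spanned -427 to 0 bp. Over the 4 constitutive genes it was 7 bp, with a range of -68 to 61 bp, and over the 3 genes raised by heat it was 0 bp, with a range of -124 to 0 bp. The heat-inducible and constitutive ranges overlap, because SSA3 had nothing to lose. With the higher-scoring 50% of each list the medians were 0 points and -14.3 points of the window, the reverse order. Hotspots under the score limit set this: the WT hotspot of SSE2 dropped out, and so did the G170D promoter hotspots of SSZ1 and SSB2. The 96 bp WT hotspot at the SSB2 start dropped out too. The SSZ1 hotspots stood just on either side of the limit, at percentile 50.7 in WT and 49.8 in G170D. The change at SSZ1 thus turned from 12.2 to -42.6 points, and that at SSB2 went from -13.6 to -28.6 points. The difference between classes was not tested.

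**Figure D3:**
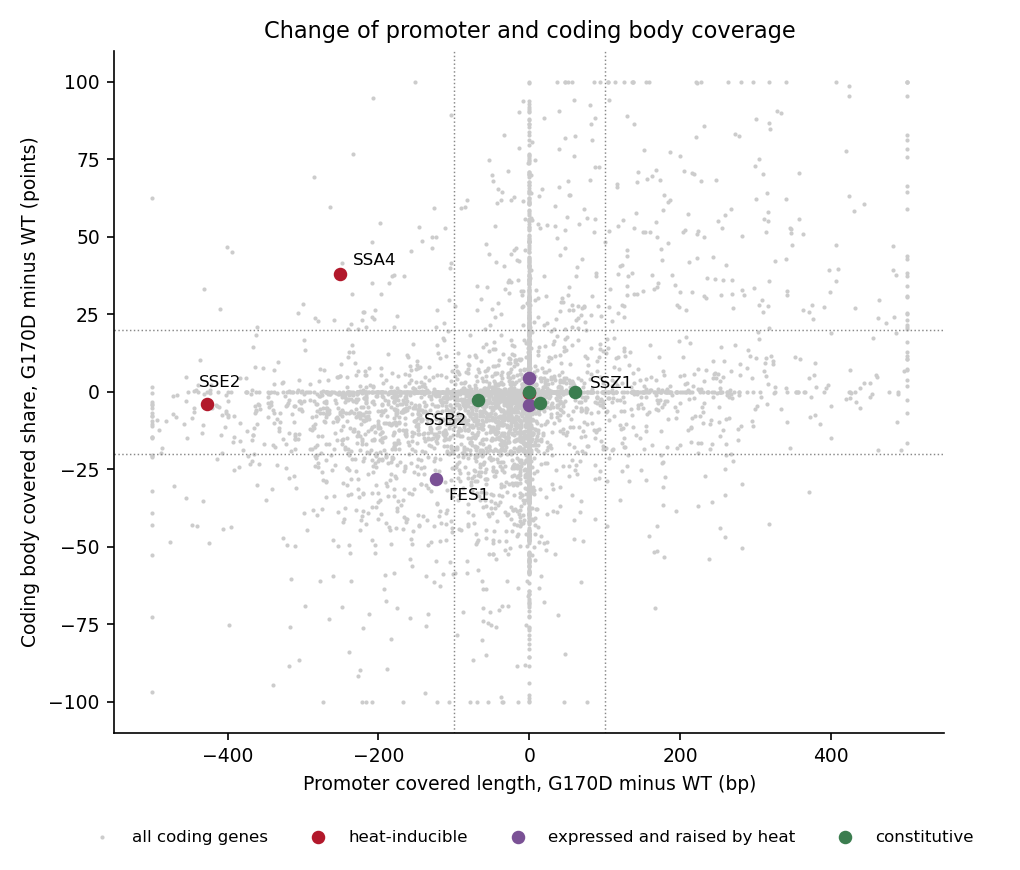
Change of promoter covered length (bp, G170D minus WT) against change of the coding body covered share (percentage points) for 6002 coding genes in grey and the 10 chaperone genes in colour by class, with dotted lines at 100 bp and 20 points. SSA4 lies at -251 bp and 38.1 points, SSE2 at -427 bp and -3.94 points and FES1 at -124 bp and -28.3 points, while the other 7 genes lie inside both limits.

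Paralogues differed in promoter coverage in 3 of 4 pairs, counting any difference in bp. No share over other pairs of genes was taken. In the pair SSE1 and SSE2, both promoters were open in WT (500 and 427 bp), and in G170D that of SSE1 was still covered over 500 bp and that of SSE2 over 0 bp. SSA3 and SSA4 stood apart in both strains, with 0 and 500 bp of promoter covered in WT and 0 and 249 bp in G170D. Their 3′ ends were alike in G170D only, where the last of 3 equal parts of the coding body was covered over 100% at SSA3 and 99.2% at SSA4. In WT it was covered over 100% at SSA3 and 0% at SSA4. SSB1 and SSB2 kept an uneven pattern in both strains, at 486 and 194 bp in WT and 500 and 126 bp in G170D. The pair SSA1 and SSA2 was even, with 500 bp in each strain. The change of SSE2 minus that of SSE1 was -85.4 points of the window, but 0 with the higher-scoring 50% of each list. For SSB2 minus SSB1 it was -16.4 points, -6.2 with lists of equal length and -31.4 with the higher-scoring 50%. For SSA4 minus SSA3 it was -50.2 points with and without that score limit, and -0.4 with a 250 bp window. SSA1 and SSA2, and SSB1 and SSB2, have nearly identical coding sequences. The sources used here do not say how reads that map to both copies were treated, so the values inside these 4 coding bodies are uncertain.

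Within the coding bodies, hotspots were found more often at the ends than in the middle, as over all coding genes. The first, middle and last of 3 equal parts had a hotspot in 7, 3 and 7 of the 10 genes in WT and in 5, 3 and 7 in G170D. Over all coding genes the shares in the same order were 65.1%, 44.8% and 54.7% in WT and 58.5%, 37.9% and 46.6% in G170D, so the counts lay near them. The genes with any coverage of the middle part were SSA3, SSA4 and FES1 in both strains, at 18.0% of that part in WT and 48.1% in G170D for SSA4. FES1 had 48.4% and 41.2%, and SSA3 1.85% and 0.77%. The rest had 0%, among them SSA1, SSA2, SSB1 and SSB2, whose coding body values are uncertain because of their near-identical copies. The counts and medians given here include those values. The median covered share of the whole coding body was 12.1% in WT and 12.8% in G170D, beside 19.7% and 13.6% over all coding genes. FES1, a short gene of 873 bp, had the highest share in WT, and SSA4 in G170D.

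The 500 bp past the end of the coding body were more covered in G170D at several genes, a measure that was added after the hotspot positions had been seen. The covered length was at least 100 bp higher in G170D at 4 of the 10 genes, beside 8.03% of coding genes, and at least 100 bp lower at 0, beside 19.1%. It was 0 bp in WT against 410 bp in G170D at SSA4 and 99 and 500 bp at SSA3. It was 139 and 477 bp at SSA2, whose downstream neighbour PAU17 is convergent, and 218 and 340 bp at SSB2. SSA1 and SSE2 had 500 bp in both strains, and at the other 4 genes at most 72 bp was covered in either strain. The 4 genes thus include 2 heat-inducible and 2 constitutive ones. At SSA3 and SSA4 the next gene lies on the same strand, 237 and 284 bp away, so part of this stretch is also the promoter of ILS1 or RTT105.

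**Figure D4:**
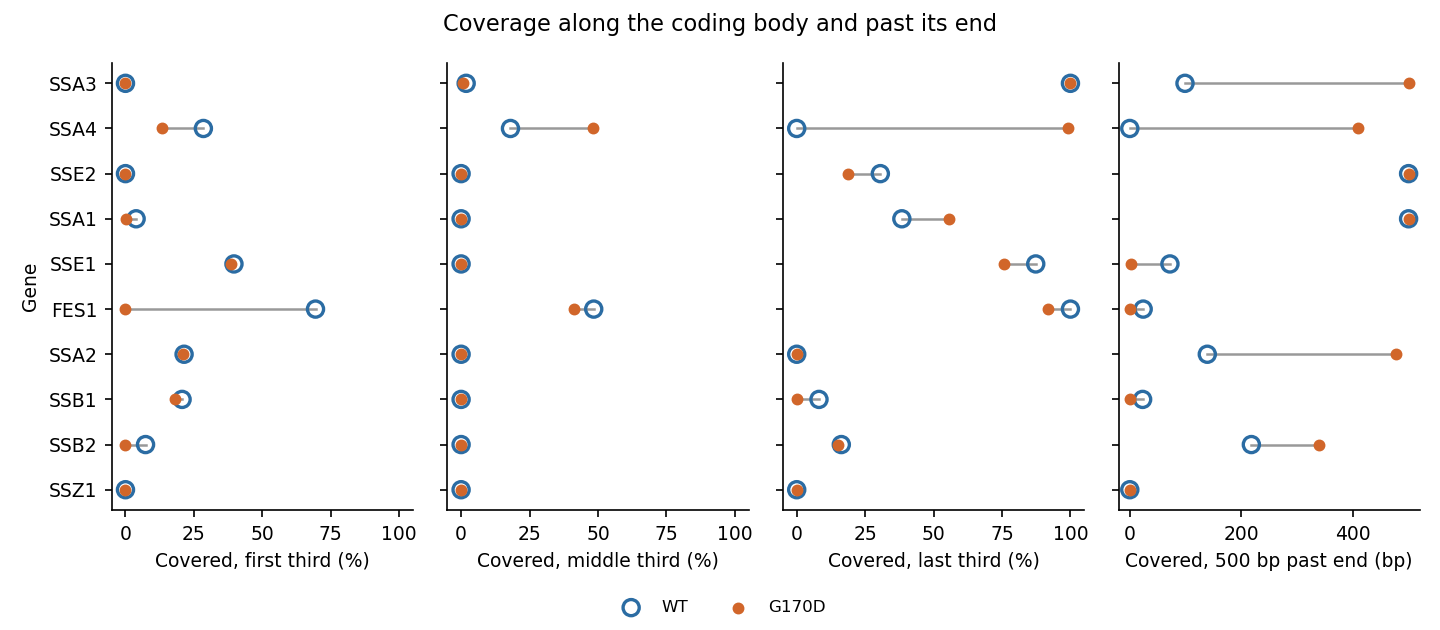
Covered share (%) of the first, middle and last of 3 equal parts of each coding body, and covered length (bp) of the 500 bp past its end, with open circles for WT and filled points for G170D. The last part of SSA4 goes from 0% to 99.2%, the first part of FES1 from 69.4% to 0%, and the stretch past the end is longer covered in G170D at SSA3, SSA4, SSA2 and SSB2.

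The same description was made for 25 other genes of the Hsp70 system, called partners here for short. Besides genes that work with the cytosolic chaperones, they include Hsp70 genes of other compartments (KAR2, LHS1, SSC1, SSQ1 and ECM10). A promoter hotspot was present in WT for 23 of 25 (82.0% of all coding genes) and in G170D for 22 (76.0%), and the median window was covered over 345 bp in WT against 280 bp in G170D, beside 317 and 286 bp over all coding genes. The covered length was at least 100 bp lower in G170D for 6 of 25 (19.6% of all coding genes) and at least 100 bp higher for 2 (9.61%). Of the J-domain genes, JJJ1 had 500 bp in WT against 387 bp in G170D, and JJJ2 had 472 and 321 bp. SNL1, which encodes another Hsp70 exchange factor, had 345 bp in WT against 0 bp in G170D. CNS1, whose product bridges Hsp70 and Hsp90, had 485 and 132 bp. The sequestrase gene BTN2 and its relative CUR1 went from 500 bp in WT to 338 and 322 bp in G170D. Higher values were found at HLJ1, an endoplasmic reticulum J-domain gene (0 and 179 bp), and at SSC1, the mitochondrial Hsp70 gene (339 and 500 bp).

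Coding bodies of the partners moved past the limit of 20 points in both directions, at 4 of 25 genes downward (15.3% of all coding genes) and 3 upward (9.43%), counts near those shares. SIS1, an essential J-domain partner of Ssa, was covered over 39.5% of its body in WT and 100% in G170D, with its whole promoter open in both. YDJ1, the gene of the major cytosolic J-domain protein, went from 71.3% in WT to 47.3% in G170D, again with 500 bp of promoter in both strains. HSP104, the disaggregase that works with Ssa, had 77.1% and 53.2%, JJJ3 had 100% and 45.5% and CUR1 had 100% and 72.9%. HSP42, a small heat shock protein gene, had 2.13% and 38.1%, and HLJ1 had 13.9% and 77.5%. ZUO1, the partner of SSZ1, stayed low in both, with 159 and 126 bp of promoter and 12.7% and 10.9% of the body. None of these 25 genes combined a promoter at least 100 bp less covered with a body at least 20 points more covered, as SSA4 did. That combination was found in 0.9% of all coding genes, so a count of 0 of 25 lay near that share.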

How the data were processed

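Hotspot lists of 1 WT and 1 G170D DNase-seq library were compared. Light DNase I digestion of nuclei and HiSeq2000 sequencing are described per the labels' protocols. Per the submitters' processing notes, the tools included FastQC 0.10.1 and Bowtie 1.0.0, with sacCer3 as build. The sources used here do not name the hotspot caller, its threshold or the handling of multiply mapping reads. The deposited lists, called separately in each sample, give a score whose meaning is not stated, so the score only ranked hotspots within a list.

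Genes were placed by RefSeq R64 coordinates, with strand from W or C in the systematic name. Covered bases were counted in the 500 bp before the coding start, the coding body and the 500 bp past it, for all 6002 coding genes. A hotspot counted from 1 bp of overlap. Differences of 100 bp or 20 percentage points were called, without a p-value. Genes named were all 10 members, partners past either limit, neighbours and the 5 genes nearest to the member with the largest change; ZUO1 and the downstream neighbours were added after their values were seen. Members, classes and lists were chosen with earlier results of these data known. On simulated lists over 6002 genes, 0 of 24008 covered lengths and shares were wrong. Python 3.11.15, numpy 2.4.6 and pandas 2.3.3 were used. A planned motif search was left out, as no sequence was at hand. Alternatives covered the window, the score limit, merging, the call limits and the classes.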

Additional observations from a re-analysis of the deposited data

How the results depend on the processing

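No paired analysis was possible because each strain had 1 library, and for the same reason no replicate could be left out. The numbers of promoters with a hotspot stayed within 1.5 times of the main counts under the alternatives run, as did the number less covered in G170D. With a 250 bp window the median covered promoter share was 100% in WT and 81.2% in G170D. The median change of the heat-inducible genes was then -0.4 points, SSA4 minus SSA3 -0.4, SSB2 minus SSB1 -20.4 and SSE2 minus SSE1 -70.8, and 2 partner genes had less promoter covered. With 1000 bp the medians were 59.2% and 43.5%, the pair differences 1.7 (SSA2 minus SSA1), -37.2 (SSB) and -64.0 (SSE), 2 members had more promoter covered in G170D and 1 partner did. With the window ended at the upstream coding body the WT median was 100% and the SSE difference -79.0. Equal list lengths gave an SSB difference of -6.2. The higher-scoring 50% of each list gave median body shares of 7.65% in WT and 9.93% in G170D, 2 members with less body covered, promoter medians of 0 points (heat-inducible) and -14.3 points (constitutive), pair differences of -31.4 (SSB) and 0 (SSE), and 1 partner with more promoter covered. A limit of 50 bp gave 1 member with more promoter covered, and a limit of 40 points gave 0 members with a body change in either direction. With SSA1, SSE1 and FES1 counted as heat-inducible, that median was -12.4 points. Among changes of single genes, values moved by more than a 95% Wilson interval taken over 500 bases (a yardstick only, since bases are not independent) for 8 of 10 with 1000 bp, 6 of 10 with 250 bp, 4 of 10 with the shortened window, 6 of 20 with the higher-scoring 50% and 3 of 20 with equal lengths. Merging gaps of up to 150 bp changed nothing, because the smallest gap in either list was wider (151 bp in each). With the higher-scoring 50%, the promoter hotspots lost included that of SSE2 in WT and that of SSZ1 in G170D (12.2 to -42.6 points). At SSB2 the G170D promoter hotspot and the 96 bp WT hotspot were lost (-13.6 to -28.6 points). At SSE1 the G170D hotspot over the 3′ end was lost (percentile 36.9) and that of WT was kept (percentile 61.5). The SSE1 body change then went from -4.27 to -29.5 points. Small hotspots inside SSA4, SSB1 and SSE2 were also lost. The cause of the other shifts was not tested. Depth is unknown, and what the shorter G170D list owes to it was not tested.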
